A study of Mus musculus with 8 samples.

Results

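The genes described here are 40 genes of DNA replication and the cell cycle, chosen by name and kept in 3 groups: 20 for licensing and replication, 7 for mitosis and 13 for control of the G1 phase. They were read in RNA-seq of liver from C57BL/6 mice fed a 42% fat diet for 8 weeks, with 4 groups and 2 libraries a group. The TG group ("TG homo") overexpresses Ube3a, which encodes a ubiquitin ligase, and was set against its own WT pair. The het group carries 1 knockout and 1 WT allele of Ube3a and was set against a second WT pair, deposited in a separate table. All 4 groups share strain and diet. The labels name neither the promoter that drives the transgene nor the age and sex of the mice, nor do they say that 2 libraries of a group were 2 animals. The p-values below therefore reflect the spread among these libraries alone, part or all of which could be technical. Of 13774 genes listed for TG, 39 belong to the 40 (Ccnb1 was not analysed), and of 11773 genes listed for het, 36 do (Ccnb1, Ccnb2, Ccne2 and Cdc20 were not analysed).

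DNA replication begins with licensing, in which CDT1 and the origin recognition complex load the ring of MCM proteins onto DNA, where it later becomes the core of the replicative helicase. PCNA, its loader RFC, the polymerases, FEN1 and LIG1 then copy and seal the strands, and cyclins with their kinases drive the passage from G1 into S phase and mitosis, held back by the RB family and CDK inhibitors. Most hepatocytes of an adult liver rest outside the cycle, and many are polyploid.

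The tables hold read counts divided by the authors' factor for each library, called normalised reads below. The 2 tables were scaled apart, so that normalised reads are never set across them. Over the genes listed, the reads recovered from the values came to 44193275 to 47928229 a library for TG with its WT pair. They came to 13171145 to 17748088 for het with its own. Reads of genes not listed are not in these sums. Among the genes described here, 8 of 39 had a mean under 100 normalised reads in the TG table and 19 of 36 in the het table, where precision is lower. Ube3a was 4.69-fold higher in TG than in its WT pair (limma's adjusted p = 0.0586) and had a log2 fold change of −0.42 in het (adjusted p = 0.129), each mutant library lying on the labelled side of both WT libraries. All 7 hepatocyte markers were listed in both tables, albumin at 978950 normalised reads in the lowest library. In 19 of the 40 genes, some exon bases are also covered by another annotated gene. Fen1 shares 84.2% of its exon bases, all of them with transcripts of the other strand, and since the use of strand in counting is not given, their reads cannot be told apart. The same holds for 23.4% of the exon bases of Ccnd1, 21.0% of those of Rbl2 and 19.7% of those of Cdk4. Pcna, Ccnd3, Ccnb1 and Ccnb2 have named pseudogenes that could take or give reads.

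In TG liver the genes of licensing and replication lay low and those of mitosis lower still, while most G1 control genes overlapped with WT. Of the 39 genes, 19 had both TG libraries below both WT libraries, an order that 21.6% of all listed genes showed. In the other direction 3 had both TG libraries above both WT libraries, which 21.8% of all genes did. By group, the lower order held for 13 of 20 licensing and replication genes, 4 of 6 mitotic genes and 2 of 13 G1 control genes. The median log2 fold change was −0.36 for licensing and replication, −1.09 for mitosis and −0.07 for G1 control, with 0.00 over all genes of the table. Over the 4 mitotic genes that the het table lists too, which leaves out Cdc20 and Ccnb2, the TG median was −0.65. Fold changes are on the scale of log2(value + 1), which understates those of low genes. In bulk tissue, fewer cells of a type and less RNA per cell cannot be told apart.

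Gene by gene, limma called none of the 39 genes at an adjusted p under 0.05 (0 of all 13774 genes, 0% in each direction). At an unadjusted p under 0.05, 13 genes were lower and 2 higher, against 3.96% and 5.15% of all genes. The 13 were Mcm2, Mcm3, Mcm4, Mcm5, Mcm6, Cdt1, Fen1, Rfc4, Pold1, Top2a, Cdk1, Cdc20 and Ccne1, and the 2 were Rrm2 and Cdkn1b. On the reads recovered from the values, DESeq2 called 3 of the 39 lower (Mcm2, Mcm3 and Mcm4), where it called 0.666% of all genes lower. edgeR and limma-voom called 0. All 15 genes under an unadjusted p of 0.05 kept their sign in every alternative tried. For the leave-outs this was fixed in advance, since in each of these genes both TG libraries lay on the same side of both WT libraries. Of the other 24 genes, 15 changed sign when a library was left out.

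**Figure D1:**
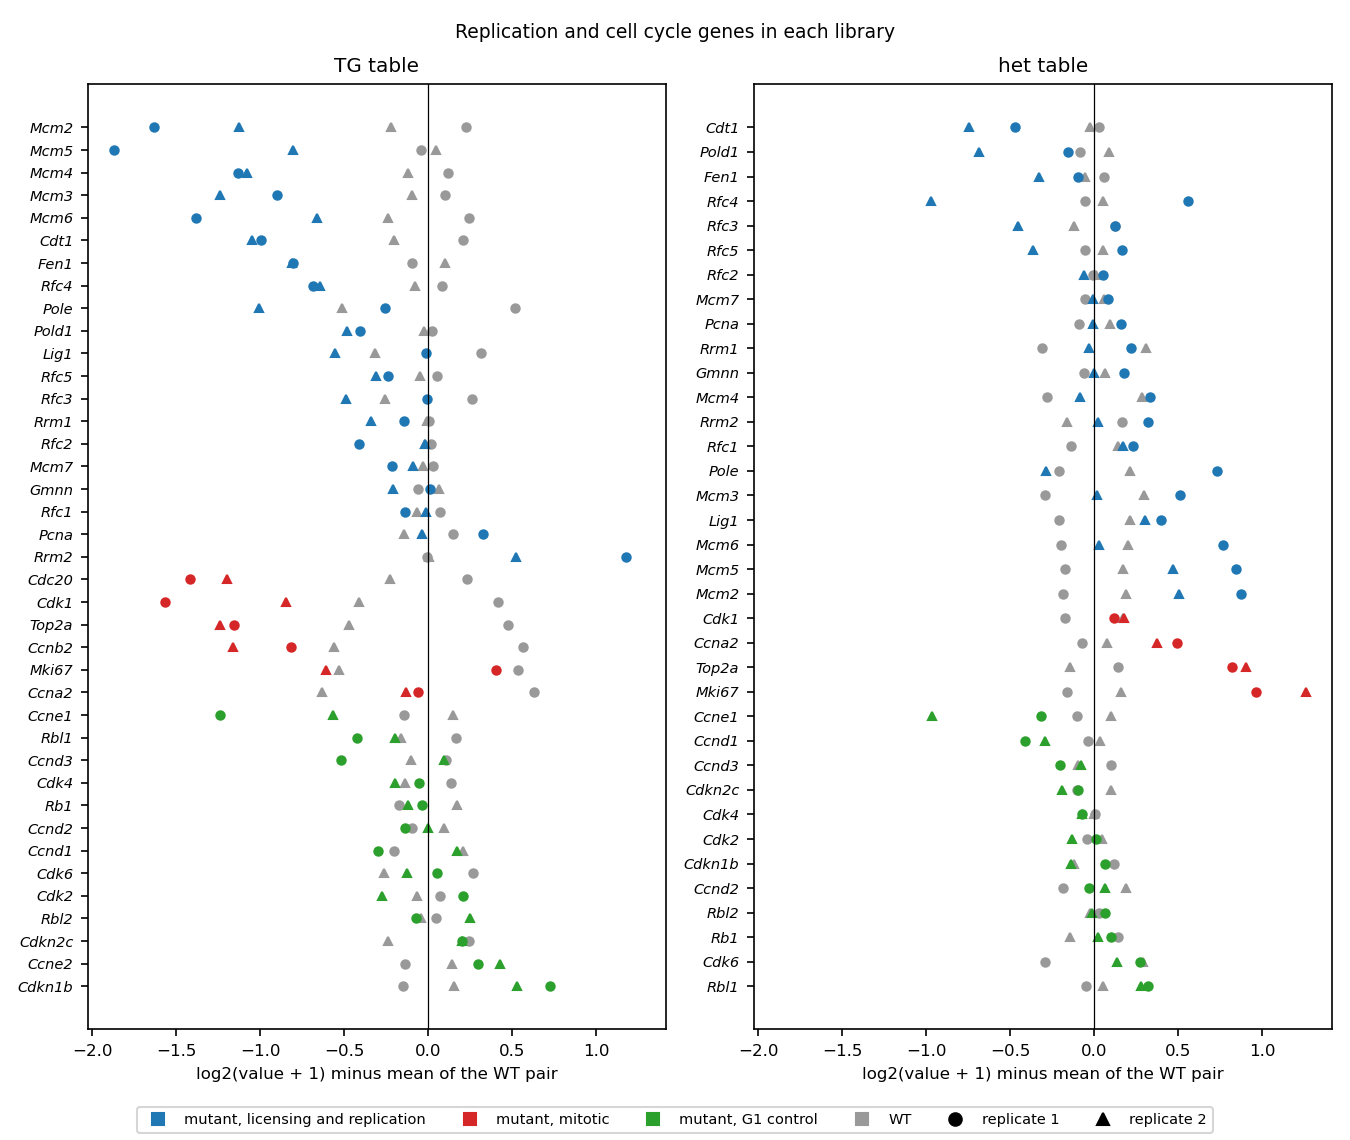
Each gene's log2(value + 1) in every library minus the mean of its WT pair, for the TG table (left, 39 genes) and the het table (right, 36 genes); grey marks are WT, coloured marks the mutant by gene group, circles replicate 1 and triangles replicate 2. In the TG table the marks of Mcm2 to Mcm6, Cdt1, Fen1 and Rfc4 lie left of both WT marks, and those of Rrm2 and Cdkn1b lie right of both.

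The MCM genes encode the 6 subunits of the licensing ring. Mcm2 (chr6:88883474-88898780, − strand, GRCm38) was at 411 and 302 normalised reads in WT replicates 1 and 2 and at 113 and 161 in TG replicates 1 and 2. Mcm3 (chr1:20802968-20820312, − strand) was at 534 and 465 in WT and at 267 and 210 in TG. Mcm4 (chr16:15623897-15637400, − strand) was at 447 and 379 in WT and at 187 and 194 in TG. For each of these genes, the higher TG library stood well under the lower WT library. The log2 fold change was −1.38 for Mcm2 (SE 0.27, adjusted p = 0.385), −1.07 for Mcm3 (SE 0.19, adjusted p = 0.346) and −1.11 for Mcm4 (SE 0.17, adjusted p = 0.276), all by limma. With DESeq2 the adjusted p was 0.00481, 0.00569 and 0.00128 in the same order, so that the tool decided these calls.

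In Mcm5 and Mcm6 the 2 TG libraries stood further apart. Mcm5 (chr8:75109569-75128439, + strand) was at 344 and 367 in WT and at 96.5 and 203 in TG (log2 fold change −1.34, SE 0.38, adjusted p = 0.518). Mcm6 (chr1:128331590-128359664, − strand) was at 712 and 509 in WT and at 230 and 380 in TG (−1.02, SE 0.31, adjusted p = 0.526). TG replicate 1 was the lower library in both, and the groups still did not overlap. Over the leave-outs of each library, the log2 fold change of Mcm5 ranged from −1.87 to −0.80.

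Mcm7 stood apart from the other subunits. It lay at chr5:138164583-138172422 (− strand) and was at 611 and 587 in WT against 516 and 561 in TG. The groups did not overlap, but the log2 fold change was only −0.15 (95% interval −0.49 to 0.18, adjusted p = 0.724). Per length of exon, Mcm7 made up 19.6 and 21.9% of the summed level of Mcm2 to Mcm7 in the WT libraries and 35.4 and 32.3% in TG. That sum, in reads per length of exon and per recovered reads of the library (RPKM, computed here), was 15.4 and 13.6 in WT and 7.21 and 8.17 in TG. Mcm7 shares 12.6% of its exon bases with other genes, Mir25, Mir93, Cops6 and Ap4m1, whose part in its level was not tested.

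**Figure D2:**
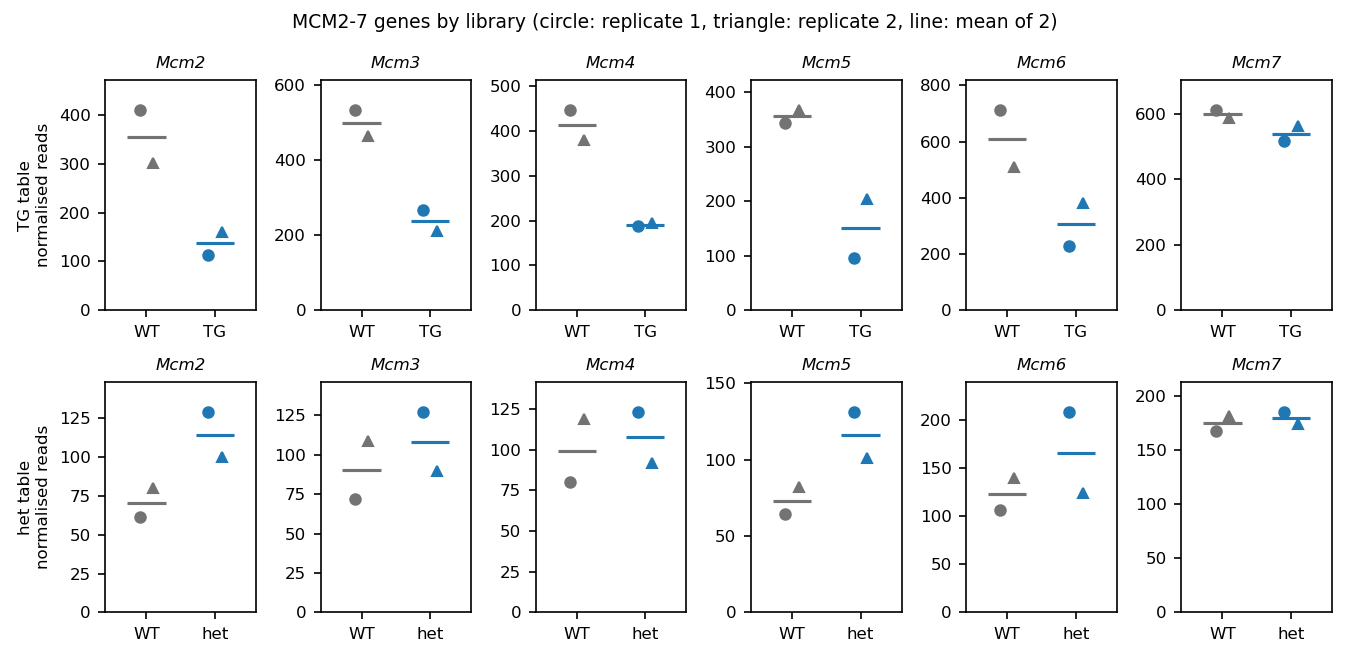
Normalised reads of Mcm2 to Mcm7 in each library (circle: replicate 1, triangle: replicate 2, line: mean of 2), TG table above and het table below, each axis starting at 0. In the TG table both TG marks of Mcm2 to Mcm6 lie under both WT marks with a wide gap, and those of Mcm7 lie just under; in the het table both het marks lie above both WT marks for Mcm2 and Mcm5.

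The promoters of the MCM genes are shown because these genes lay low together and because E2F factors are known to bind them. RefSeq windows of GRCm38.p6, from 250 bases before to 50 after the annotated start, matched 31 of the 40 genes (37 windows), all MCM genes but Mcm4 among them. The E2F letters searched on both strands were TTTCCCGC, TTTCGCGC, TTTGCCGC and TTTGGCGC, and overlapping matches were counted apart. They stood in 2.26% of all 32851 windows of this length, in 8 of 20 windows of licensing and replication genes (40.0%) and in 4 of 6 MCM windows. Capitals mark the matches below, each window being 300 bases read 5′ to 3′ on the strand of the gene. Mcm2, the member with the lowest fold change, had no match. Mcm7, with the smallest change of the ring, has 2 windows, of which the one printed had 2 matches and the other (chr5:138171217-138171516) had 0. A match is a description of the letters and not a bound site, and the order of the fold changes did not follow that of the matches.
Mcm2 (chr6:88898731-88899030, − strand, no match): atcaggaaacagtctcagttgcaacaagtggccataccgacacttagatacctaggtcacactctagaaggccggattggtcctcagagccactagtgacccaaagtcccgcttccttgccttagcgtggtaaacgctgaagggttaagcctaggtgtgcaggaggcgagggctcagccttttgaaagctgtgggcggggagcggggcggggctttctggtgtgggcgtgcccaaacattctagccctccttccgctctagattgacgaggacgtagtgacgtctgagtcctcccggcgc
Mcm3 (chr1:20820263-20820562, − strand, 2 matches): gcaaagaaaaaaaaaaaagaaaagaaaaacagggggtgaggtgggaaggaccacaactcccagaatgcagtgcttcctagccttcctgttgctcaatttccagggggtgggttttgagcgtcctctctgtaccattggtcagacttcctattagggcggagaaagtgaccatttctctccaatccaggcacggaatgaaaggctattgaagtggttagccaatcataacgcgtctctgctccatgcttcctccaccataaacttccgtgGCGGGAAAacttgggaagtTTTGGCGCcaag
Mcm5 (chr8:75109259-75109558, + strand, 2 overlapping matches): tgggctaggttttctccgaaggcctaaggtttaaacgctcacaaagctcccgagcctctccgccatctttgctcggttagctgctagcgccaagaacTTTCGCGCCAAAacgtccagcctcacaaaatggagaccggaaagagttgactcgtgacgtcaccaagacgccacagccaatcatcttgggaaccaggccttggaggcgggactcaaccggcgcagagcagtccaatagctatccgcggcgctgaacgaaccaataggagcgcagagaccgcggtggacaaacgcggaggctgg
Mcm6 (chr1:128359656-128359955, − strand, 3 matches, 2 of them overlapping): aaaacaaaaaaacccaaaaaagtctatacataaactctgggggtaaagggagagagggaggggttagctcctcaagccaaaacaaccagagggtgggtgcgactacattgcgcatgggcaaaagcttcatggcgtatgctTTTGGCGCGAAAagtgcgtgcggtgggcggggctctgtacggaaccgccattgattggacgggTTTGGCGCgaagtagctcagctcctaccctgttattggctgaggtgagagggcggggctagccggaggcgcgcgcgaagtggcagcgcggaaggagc
Mcm7 (chr5:138171834-138172133, − strand, 2 matches): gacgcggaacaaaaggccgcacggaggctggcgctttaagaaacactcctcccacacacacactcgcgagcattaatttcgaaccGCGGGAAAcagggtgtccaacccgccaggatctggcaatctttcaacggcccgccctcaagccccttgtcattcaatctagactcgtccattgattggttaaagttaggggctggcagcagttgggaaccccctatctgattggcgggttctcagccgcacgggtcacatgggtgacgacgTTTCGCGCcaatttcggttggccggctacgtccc

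Of the regulators of licensing, Cdt1 lay low and Gmnn did not. Cdt1, the loading factor, was at 140 and 105 in WT and at 60.4 and 58.1 in TG (log2 fold change −1.02, SE 0.26, adjusted p = 0.496). Gmnn, which encodes geminin, the inhibitor of CDT1, was at 458 and 499 in WT and at 482 and 413 in TG, and these overlapped.

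Replication fork genes were mixed. Pcna, the sliding clamp, was at 955 and 781 in WT and at 1083 and 840 in TG, with no separation. Of the subunits of its loader, Rfc4 was at 153 and 137 in WT and at 89.7 and 92.2 in TG (−0.67, SE 0.21, adjusted p = 0.526). Rfc1, Rfc2, Rfc3 and Rfc5 had log2 fold changes from −0.27 to −0.08, so that within this complex only Rfc4 was beyond an unadjusted p of 0.05. A test of Rfc4 against the other subunits was not run. Fen1, the flap endonuclease that trims Okazaki fragments, was at 234 and 268 in WT and at 143 and 142 in TG (−0.81, SE 0.18, adjusted p = 0.454), with the overlap of its exons noted above. Pold1, the catalytic subunit of polymerase delta, was at 269 and 260 in WT and at 199 and 189 in TG (−0.44, SE 0.17, adjusted p = 0.541). Pole, that of polymerase epsilon, and Lig1, the ligase, overlapped between the groups: both were high in WT replicate 1 (344 and 341) and low in TG replicate 2 (119 and 186).

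The subunits of ribonucleotide reductase, which makes the deoxynucleotides for replication, went apart. Rrm1 was at 535 and 531 in WT and at 482 and 420 in TG (−0.24, adjusted p = 0.631). Rrm2, the subunit known to be limiting in S phase, was at 121 and 122 in WT and at 276 and 175 in TG (0.85, SE 0.27, adjusted p = 0.526). It was the only licensing and replication gene with both TG libraries above both WT libraries.

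The mitotic genes were low in TG, but their WT libraries differed among themselves. Top2a, the topoisomerase that untangles chromosomes, was at 186 and 96.0 in WT and at 59.4 and 56.1 in TG (−1.20, SE 0.37, adjusted p = 0.526). Cdk1, the mitotic kinase, was at 126 and 70.7 in WT and at 31.2 and 52.1 in TG (−1.21, SE 0.42, adjusted p = 0.534). Cdc20, an activator of the anaphase-promoting complex, was at 42.0 and 30.3 in WT and at 12.7 and 15.0 in TG (−1.31, SE 0.40, adjusted p = 0.524). Ccnb2, a B-type cyclin, was at 65.0 and 29.3 in WT and at 24.4 and 19.0 in TG (−0.99, SE 0.48, adjusted p = 0.592). In these 4 genes both TG libraries lay below both WT libraries. Mki67, the Ki-67 antigen of cycling cells, was at 196 and 93.0 in WT and at 179 and 88.1 in TG, and Ccna2, cyclin A2, at 62.0 and 25.3 in WT and at 38.0 and 36.1 in TG. Both overlapped between the groups.

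WT replicate 1 was above WT replicate 2 in 6 of 6 mitotic genes, by a median of 1.01 on the log2 scale, against −0.01 over all genes. Without WT replicate 1 the median log2 fold change of the mitotic genes was −0.58 in place of −1.09, and that of licensing and replication −0.23 in place of −0.36. Without WT replicate 2 these medians were −1.54 and −0.55. The 2 WT libraries thus moved the size of both medians by over 1.5 times in places, and their sign in none.

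The promoters of the mitotic genes are shown for another reason: cell cycle homology region (CHR) letters, known from genes of G2 and mitosis, were frequent there. TTTGAA or TTCGAA on either strand stood in 5 of 6 mitotic windows (83.3%) and in 19.2% of all windows of this length. CCAAT on either strand was in 6 of 6, against 37.4% of all windows. It was in 6 of 6 MCM windows too, and in 11 of 20 windows of licensing and replication genes. CHR letters stood in 2 of 6 MCM windows, where they are not marked above, and in 4 of 20 windows of licensing and replication genes. Capitals mark the CHR letters in the windows of Top2a, with 4 matches, and Mki67, with 2.
Top2a (chr11:99024140-99024439, − strand): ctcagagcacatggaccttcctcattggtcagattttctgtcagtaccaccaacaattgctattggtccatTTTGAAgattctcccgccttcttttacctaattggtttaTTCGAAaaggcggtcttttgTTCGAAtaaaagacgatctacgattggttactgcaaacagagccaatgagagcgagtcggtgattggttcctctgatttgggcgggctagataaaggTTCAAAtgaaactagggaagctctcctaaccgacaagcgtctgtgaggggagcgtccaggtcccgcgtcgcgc
Mki67 (chr7:135716330-135716629, − strand): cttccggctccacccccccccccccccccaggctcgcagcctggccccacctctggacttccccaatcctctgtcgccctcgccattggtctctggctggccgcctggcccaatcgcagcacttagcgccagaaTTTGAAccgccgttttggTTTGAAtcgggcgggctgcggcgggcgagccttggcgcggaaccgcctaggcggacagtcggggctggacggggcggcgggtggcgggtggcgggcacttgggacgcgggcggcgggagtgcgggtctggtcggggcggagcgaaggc
Both windows hold these letters, although Mki67 overlapped with WT in TG and Top2a did not; nothing about a factor can be read from them.

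Genes of G1 control mostly overlapped between TG and WT. Ccnd1, cyclin D1, was at 4940 and 6572 in WT and at 4620 and 6417 in TG, so that replicate 2 was the higher library in each group and no difference stood out. Ccnd2, Ccnd3, Cdk2, Cdk4 and Cdk6 had log2 fold changes from −0.21 to −0.04, and Rb1 and Rbl2, which encode pocket proteins, −0.08 and 0.09. All 7 overlapped. Rbl1, the third pocket protein gene, was at 167 and 133 in WT and at 111 and 130 in TG (−0.31, adjusted p = 0.686).

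The E-type cyclins, partners of CDK2 at the entry into S phase, lay on opposite sides. Ccne1 was at 74.0 and 90.9 in WT and at 34.1 and 55.1 in TG (−0.90, SE 0.34, adjusted p = 0.541). Ccne2 was at 43.0 and 52.5 in WT and at 58.5 and 64.1 in TG (0.36, SE 0.28, adjusted p = 0.699). Neither passed the test, and their reads were few.

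Of the CDK inhibitors, Cdkn1b was high in TG. It was at 662 and 815 in WT and at 1216 and 1060 in TG, 1.54-fold higher with no overlap (log2 fold change 0.63, SE 0.16, adjusted p = 0.496). Cdkn2c, an inhibitor of CDK4 and CDK6, overlapped at 318 and 228 in WT and 310 and 309 in TG. Cdkn1a, a further inhibitor outside the 40 genes, was at 193 and 184 in WT and at 36.1 and 70.1 in TG (−1.88). limma did not call it (adjusted p = 0.382), and DESeq2 called it lower (adjusted p = 0.00309).

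Per length of exon, cyclin D1 and its kinase gene Cdk4 stood far above the mitotic genes in every library of the TG table. Ccnd1 ran from 21.4 to 31.3 RPKM and Cdk4 from 9.51 to 12.6, both with the shared exon bases noted above. Pcna, at 7.29 to 9.86, led the licensing and replication genes together with Gmnn, at 5.87 to 7.63. Top2a ran from 0.130 to 0.452, Mki67 from 0.182 to 0.427 and Cdc20 from 0.148 to 0.492, so that the mitotic signal rests on few reads (13 to 42 in Cdc20).

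Other genes of the same pathways were counted from 3 lists that hold none of the 40. Of all genes of the TG table, 21.6% lay below both WT libraries and 21.8% above. Of the other replication genes, 49 of 50 were listed in TG: 21 lay below and 6 above, with a median of −0.22. Of smallest p there were Rpa2, a subunit of the single-strand binding protein RPA (519 and 469 in WT, 263 and 293 in TG; −0.83, adjusted p = 0.382), Uhrf1, a partner of the maintenance DNA methyltransferase (−1.32, adjusted p = 0.423), and Chaf1a, a chromatin assembly factor (−1.29, adjusted p = 0.436). Of the other mitotic genes, 43 of 48 were listed, 26 below both WT libraries and 0 above, with a median of −0.66 (−0.41 over the 24 that the het table lists too). WT replicate 1 was above WT replicate 2 in 34 of the 43, by a median of 0.51 on the log2 scale, against −0.01 over all genes. The kinetochore gene Spc24 was at 542 and 712 in WT and at 242 and 204 in TG (−1.48, SE 0.20, adjusted p = 0.206). Ube2c encodes a ubiquitin-conjugating enzyme that works with the anaphase-promoting complex. It was at 82.0 and 46.5 in WT and at 7.80 and 16.0 in TG (−2.36, SE 0.51, adjusted p = 0.445). Cdca8, of the chromosomal passenger complex, had −1.23 (adjusted p = 0.526). Of the other G1 control genes, 30 of 32 were listed, 8 below, which is near the share over all genes, and 4 above, with a median of 0.01. E2f3 (−0.62, adjusted p = 0.518) and E2f1 (−1.22, adjusted p = 0.534), activators of S phase genes, had the smallest p, followed by Mycn (1.54, adjusted p = 0.557), which was at 136 in TG replicate 1 and at 43.1 in replicate 2. At an unadjusted p under 0.05, 9 replication, 9 mitotic and 2 G1 control genes of these lists were lower and 0 higher, against 3.96% and 5.15% of all genes, so that the 2 of 30 in G1 control are near that background. limma called 0 of these genes. DESeq2 called 4 lower, Spc24 (adjusted p = 9.2e-06), Rpa2 (0.0253), Ube2c (0.0327) and Chaf1a (0.0443), where it called 0.666% of all genes lower. edgeR and limma-voom called 0.

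Most endothelial and macrophage markers lay low in the same TG libraries, and stellate cell markers did not. Of 12 endothelial markers 11 were below both WT libraries, against 21.6% of all genes, and their summed level was 83.6 and 82.7% of the WT mean in TG, against 100 and 99.7% in the WT libraries. Of 12 Kupffer cell and macrophage markers 7 were below, with sums of 62.5 and 85.8% in TG and 104 and 96.2% in WT. The other 5 overlapped, among them Cd163, the only macrophage marker with a positive log2 fold change (0.41). Cd5l and Clec4f, both below, weighed most in that sum, with WT means of 8336 and 8137 normalised reads. Hepatocyte markers summed to 112 and 109% in TG and 110 and 90.5% in WT, and 0 of 7 were below both WT libraries and 4 above (21.8% of all genes). Albumin made up most of that sum, with 3574942 of 4649785 normalised reads in WT replicate 1. Stellate cell markers summed to 136 and 99.4% in TG and 97.5 and 102% in WT, with 0 of 9 below and 3 above. T and NK cell markers, 7 of 8 of them listed, summed to 111% in TG replicate 1 and 74.0% in replicate 2. Summed in the same way, the licensing and replication genes stood at 79.0 and 77.8% in TG and 107 and 93.5% in WT. The mitotic genes stood at 67.5 and 52.2% in TG and 133 and 67.5% in WT, so that TG replicate 1 was at the level of WT replicate 2. B and plasma cell markers, 6 of 7 of them listed, summed to 160% in TG replicate 1 and 50.6% in replicate 2, with Igkc not analysed. Cholangiocyte markers, 5 of 6 of them listed, summed to 75.8 and 90.8% in TG and 76 and 124% in WT, with 1 below (Krt19) and 1 above (Sox9). Of the neutrophil and erythroid markers 2 of 6 each were listed, without Ly6g, Mpo, Elane or the globin genes. The neutrophil sums were 74.4 and 31.7% in TG and 72 and 128% in WT. Erythroid sums were 66.7 and 72.8% in TG and 77.4 and 123% in WT, with Alas2 below and Klf1 above. The part of these cells in the result was not tested.

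**Figure D3:**
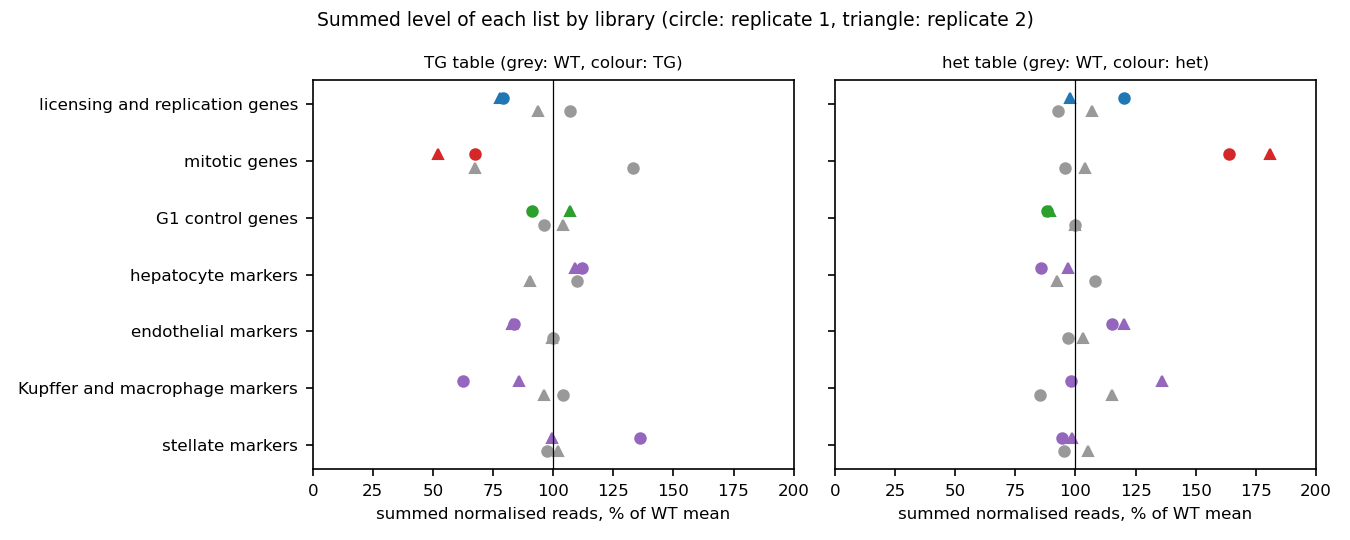
Summed normalised reads of each gene group and of 4 marker lists in every library as a percentage of the mean of the WT pair (grey: WT, colour: mutant, circle: replicate 1, triangle: replicate 2), TG table left and het table right. In the TG table replication genes (79.0 and 77.8%) and endothelial markers (83.6 and 82.7%) both lie left of their WT marks; in the het table mitotic genes (164 and 181%) and endothelial markers (115 and 120%) both lie right of them.

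In het liver the genes lay on both sides of WT. Of 36 genes, 8 had both het libraries above both WT libraries and 6 had both below, against 24.3% and 23.7% of all genes, which is near that background. Above WT there were 18 without WT replicate 2 and 20 without het replicate 2 (37.5% and 37.1% of all genes), and below it 14 without het replicate 1 (37.3%). The median log2 fold change was 0.09 for licensing and replication, 0.65 for 4 mitotic genes and −0.05 for G1 control, with 0.00 over all genes. limma called none of the 36, while it called 0.892% of all genes higher (105 of 11773) and 0.544% lower (64). At an unadjusted p under 0.05, 4 genes were higher and 2 lower, against 8.58% and 6.11% of all genes, and edgeR, DESeq2 and limma-voom called 0 as well. The 4 were Mki67, Top2a, Mcm2 and Mcm5, and the 2 were Ccnd1 and Cdt1. Both counts are near the shares over all genes.

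Among the mitotic genes, Mki67 was at 35.1 and 44.1 in WT and at 77.6 and 95.5 in het, 2.19-fold higher (log2 fold change 1.11, SE 0.23, adjusted p = 0.0683). Top2a was at 39.0 and 31.8 in WT and at 62.9 and 66.7 in het (0.86, SE 0.24, adjusted p = 0.137). Ccna2 was at 16.6 and 18.5 in WT and at 25.0 and 23.0 in het (0.43, adjusted p = 0.584). Its WT mean of 17.5 lay under the lowest mean listed for het, 17.8, so that only the het libraries raised its mean above that level. In these 3 genes both het libraries lay above both WT libraries, whereas Cdk1 (22.4 and 28.7 in WT, 27.6 and 28.8 in het) overlapped.

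In the MCM ring, Mcm2 was at 61.4 and 80.0 in WT and at 129 and 100 in het (0.69, SE 0.22, adjusted p = 0.187). Mcm5 was at 64.4 and 82.0 in WT and at 131 and 101 in het (0.66, SE 0.21, adjusted p = 0.204). Mcm3, Mcm4, Mcm6 and Mcm7 overlapped, with log2 fold changes from 0.04 to 0.39. Mcm7 made up 29.8 and 24.9% of the summed level per length in WT and 20.4 and 25.3% in het. That sum was 8.38 and 11.1 RPKM in WT and 13.5 and 10.2 in het, which overlapped. In the WT pair of TG it was 15.4 and 13.6, so that the 2 WT pairs stood apart. Cdt1 lay below WT, at 47.8 and 46.1 in WT and 33.6 and 27.6 in het (−0.61, SE 0.26, adjusted p = 0.327), and so did Pold1 (77.0 and 87.1 against 73.3 and 50.6) and Fen1 (71.2 and 65.6 against 63.8 and 54.1). Lig1 (62.4 and 84.1 in WT, 95.7 and 89.7 in het) and Rfc1 (283 and 343 against 365 and 351) lay above. Het replicate 1 was above het replicate 2 in 20 of 20 licensing and replication genes, by a median of 0.33 on the log2 scale, and in 6001 of all 11773 genes, by a median of 0.0043. Leaving out het replicate 1 gave a median of −0.03 for these genes, and leaving out replicate 2 gave 0.22.

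Of the G1 control genes, Ccnd1 was at 1922 and 2019 in WT and at 1481 and 1606 in het (−0.35, SE 0.10, adjusted p = 0.136). Ccne1 was at 30.2 and 34.9 in WT and at 25.9 and 16.1 in het (−0.64, adjusted p = 0.427). Cdk4 lay just below, at 602 and 599 in WT and 571 and 571 in het, and Rbl1 above, at 41.0 and 44.1 in WT and 53.4 and 51.8 in het. Cdkn1b overlapped at 262 and 222 in WT and 252 and 219 in het. The remaining 7 genes overlapped as well, with log2 fold changes between −0.14 and 0.20. Cdkn1a rose to 251 and 388 in het from 51.7 and 40.0 in WT (log2 fold change 2.75, SE 0.24, adjusted p = 0.00393), a call that ended with all 8 libraries in a single fit (adjusted p = 0.112).

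In the wider lists, het had 2 calls. Of all genes of the het table, 23.7% lay below both WT libraries and 24.3% above. Tk1, thymidine kinase of the salvage pathway, fell from 889 and 979 in WT to 514 and 488 (−0.90, SE 0.10, adjusted p = 0.00559), the single call among 39 other replication genes, of which 10 lay below, near the share over all genes, and 4 above. In TG, Tk1 overlapped with its WT pair. Btg2, an antiproliferative gene of the p53 response, rose from 118 and 100 to 299 and 245 (1.31, SE 0.16, adjusted p = 0.0101), the single call among 25 other G1 control genes, with 8 below and 3 above. The call for Btg2 ended without het replicate 1 (adjusted p = 0.0732), and that for Tk1 held without any single library. With all 8 libraries in a single fit, neither was called (adjusted p = 0.665 for Btg2 and 0.257 for Tk1). Of the other mitotic genes, 24 of 48 were listed: 11 lay above and 2 below, with a median of 0.28 and 0 calls. Bub1b counts among the 11, but its WT mean of 13.6 lay under the lowest mean listed for het, 17.8. Only the het libraries raised its mean above that level. Bub1b, a checkpoint kinase gene (9.75 and 17.4 in WT, 22.4 and 34.5 in het; adjusted p = 0.298), Stmn1, which destabilises microtubules (37.1 and 44.1, 61.2 and 61.0; adjusted p = 0.296), and Spc25, a kinetochore gene (138 and 145, 172 and 189; adjusted p = 0.307), had the smallest p there. At an unadjusted p under 0.05 the mitotic list had 4 higher and 0 lower, against 8.58% and 6.11% of all genes.

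Endothelial markers lay high in the het libraries: 10 of 12 were above both WT libraries (24.3% of all genes), with sums of 115 and 120% of the WT mean against 96.9 and 103% in WT. Lyve1 (0.92, limma's adjusted p = 0.0403) and Gpr182 (0.67, adjusted p = 0.0442) rose. Left-out libraries ended the call of Gpr182 in every case (adjusted p 0.0858 to 0.224), and that of Lyve1 except without WT replicate 2 (0.119 to 0.197). With all 8 libraries in a single fit neither was called (0.17 for Gpr182 and 0.511 for Lyve1). Kupffer cell and macrophage markers summed to 98.2 and 136% in het and 85.3 and 115% in WT, and hepatocyte markers to 85.6 and 96.9% in het and 108 and 92.4% in WT. Albumin again made up most of the hepatocyte sum. The mitotic genes summed to 164 and 181% in het and 95.8 and 104% in WT, and the licensing and replication genes to 120 and 97.6% in het and 92.8 and 107% in WT. The part of these cells in the result was not tested.

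Whether a gene moved differently in the mutants was tested as the TG effect minus the het effect, each against its own WT pair, in a joint fit of 8 libraries over 11754 genes. limma called none of 36 genes (0.434% of all genes were called), and edgeR called 0. At an unadjusted p under 0.05, 8 genes were lower in TG than in het relative to WT and 1 was higher, against 8.28% and 8.42% of all genes. The 8 were Mcm2, Mcm3, Mcm4, Mcm5, Mcm6, Top2a, Cdk1 and Fen1, and the 1 was Cdkn1b. The largest of these differences was that of Mcm2, at −2.07 (SE 0.37, 95% interval −2.92 to −1.22, adjusted p = 0.0643). Top2a had −2.06 (SE 0.45, adjusted p = 0.108) and Mcm5 −1.99 (SE 0.47, adjusted p = 0.133). For these 3 genes both TG libraries were below their WT pair and both het libraries above theirs. Each effect is taken from its own WT pair, so a gap between the WT pairs, like that in the summed RPKM of Mcm2 to Mcm7, enters these differences. Its part in them was not tested. Over the leave-outs of each library, the difference ranged from −2.32 to −1.81 for Mcm2 and from −2.53 to −1.46 for Mcm5.

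The remaining MCM genes had differences of −1.23 for Mcm4 (adjusted p = 0.156), −1.33 for Mcm3 (adjusted p = 0.158), −1.42 for Mcm6 (adjusted p = 0.225) and −0.19 for Mcm7 (adjusted p = 0.602). Cdkn1b had 0.67 (SE 0.22, adjusted p = 0.202). Cdt1, low in both mutants, had −0.41 (95% interval −1.21 to 0.38, adjusted p = 0.577), and Ccne1, also low in both, −0.26 (95% interval −1.40 to 0.88, adjusted p = 0.826). Those intervals include 0 and do not exclude a difference of either sign. Mki67 had −1.21 with an interval of −2.65 to 0.22 (adjusted p = 0.372). The median difference was −0.37 for licensing and replication, −1.28 for mitosis and −0.06 for G1 control, with 0.01 over all genes.

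**Figure D4:**
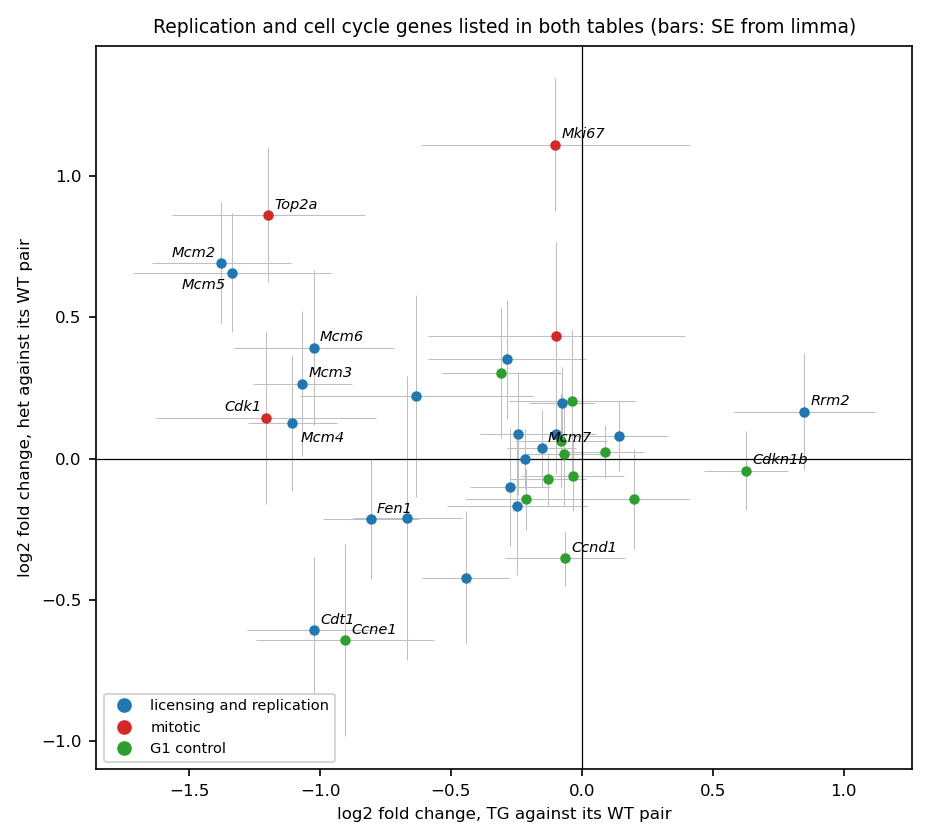
Log2 fold change against the own WT pair in TG (horizontal) and het (vertical) for the 36 genes in both tables, with bars for the standard error from limma and colours for the gene groups. Mcm2 (−1.38 and 0.69), Mcm5 (−1.34 and 0.66) and Top2a (−1.20 and 0.86) lie to the upper left, Cdt1 (−1.02 and −0.61) and Ccne1 (−0.90 and −0.64) to the lower left, and Mcm7 (−0.15 and 0.04) near the origin.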

How the data were processed

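Total liver RNA was sequenced from TruSeq libraries, per the labels' protocols. Subread 1.5.2, featureCounts, DESeq2 and mm10/GRCm38 appear in the submitters' processing notes, with no roles; which annotation was used, and whether reads were counted by strand, is not given in the sources used here. As signal, the authors deposited reads per gene divided by 1 factor per library: from the values, 100% were whole multiples of what 1 read is worth (tolerance 0.001 read). The lowest mean listed was 11.2 (TG) or 17.8 (het) normalised reads.

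The test was limma 3.58.1 in R 4.3.3 (lmFit and eBayes, trend and robust) on log2(value + 1), separately for each table, with Benjamini-Hochberg adjustment over all its genes and a threshold of 0.05. A joint fit gave the difference of the effects. Alternatives were edgeR 4.0.16, DESeq2 1.42.0 and limma-voom on recovered reads, pseudocounts 0.5 and 5, TMM scaling, scaling that ignores the 20 most abundant genes, a minimum mean CPM of 5, eBayes without robust, 8 libraries in 1 fit, a replicate block and leave-outs of each library. The limma script was tested on simulated data with 200 changed genes. Positions and exon lengths came from GENCODE M21, and promoters from RefSeq. The 40 genes and all lists were chosen with earlier results of these data known. Each of the 40 could be named, and from each wider list its called genes or else the 3 of smallest p, with Ube3a and Cdkn1a. Lyve1 and Gpr182 were named after their values were seen. Promoter motifs and exon overlaps were examined after the values were seen, as were the counts of separated libraries under alternatives.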

Additional observations from a re-analysis of the deposited data

Results flagged for a closer look

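Cdkn1a, the CDK inhibitor gene outside the 40 genes, drew attention because its effects in the 2 mutants differed by the test of the difference itself: the TG effect minus the het effect was −4.63 on the log2 scale (limma's adjusted p = 0.0177, and 0.0196 with edgeR). It was low in both TG libraries and high in both het libraries against the own WT pair. The call was lost when any 1 of the 4 WT libraries or the 2 het libraries was left out (adjusted p 0.0568 to 0.0962), and was kept without either TG library.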

How the results depend on the processing

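Among the 40 genes, limma's 0 calls in TG became 3 lower with DESeq2, and 0 to 1 when a library was left out (1 without TG replicate 2). A library left alone in its arm was assumed to vary like the others. The calls for the difference were 0 to 2 lower under leave-outs. The TG medians ranged over leave-outs from −0.55 to −0.23 for licensing and replication, from −1.54 to −0.58 for mitosis and from −0.056 to 0.0091 for G1 control, and no mitotic gene was left with mean CPM of at least 5. With fewer libraries an order is easier to meet: TG genes below WT numbered 23 to 29 (34.4 to 39.2% of all genes) and above 4 to 7 (33.6 to 38.2%), het genes below 7 to 14 (35.8 to 38.3%) and above 9 to 20 (36.8 to 37.5%). Over all genes, TG calls were 96 higher and 90 lower with DESeq2, 14 and 11 when 8 libraries shared 1 fit, 72 and 74 without TG replicate 2 and 3 and 3 without TG replicate 1. Het calls, 105 higher and 64 lower, were 189 and 100 with DESeq2, 58 and 35 without robust estimates, 0 and 0 when 8 libraries shared 1 fit, and 38 to 130 and 17 to 43 under leave-outs. Calls for the difference, 24 and 27, were 3 to 260 and 1 to 383. Same-numbered libraries deviated together with correlations of 0.107 (TG) and −0.043 (het), and no label pairs them. With the replicate block, 0 of the 40 genes were called in TG or het, and het had 87 higher and 51 lower over all genes. Of the genes under an unadjusted p of 0.05, none changed sign in any alternative. In TG and in het the leave-outs could not change it, since mutant and WT libraries did not overlap in these genes. Of the other genes, 18 of 30 in het and 14 of 27 for the difference changed sign without a library. In the het table, with 13171145 to 17748088 recovered reads a library over the genes listed, 19 of 36 genes had a mean under 100 normalised reads, which limits what could be detected.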
